A study of Mus musculus with 9 samples.

Results

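*Vegfa*, *Vegfb*, *Vegfc*, *Pgf*, *Angpt1*, *Angpt2* and *Flt4* were followed in bulk RNA-seq of whole mouse kidneys at E15.5, a stage of active kidney vascularization. These 7 genes were taken by gene symbol and not by a threshold on their values, and each was found at 1 locus of the 24138 loci in the deposited table. The first 6 encode ligands, whereas *Flt4* encodes a receptor (VEGFR3) and is treated as one throughout. Values are FPKM, read fragments scaled to transcript length and to library size, so levels of different genes can be compared per length. RNA came from 9 kidneys, 3 of each genotype, collected from 3 crosses on a C57Bl6/J background. The Foxd1GC/+;Ntn1fl/fl kidneys (labelled MUT) carried the *Foxd1* GFP-Cre knock-in and 2 floxed alleles of *Ntn1*, the gene of the secreted guidance ligand netrin 1. The Foxd1GC/+;Ntn1fl/+ kidneys (labelled HET) carried the same knock-in and 1 floxed allele. The Ntn1fl/fl kidneys (labelled WT) carried 2 floxed alleles without Cre. Thus all 3 groups held at least 1 floxed *Ntn1* allele, and HET and MUT both lacked 1 functional *Foxd1* allele. Cre was driven from the *Foxd1* locus, which is active in stromal progenitors, so recombination was limited to these cells and their descendants while RNA was taken from the entire organ. The comparison of MUT with HET asks what the second floxed allele adds, and WT gives the background without Cre.

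VEGF ligands are secreted proteins that bind tyrosine kinase receptors on endothelial cells. VEGF-A drives endothelial growth and sprouting through VEGFR2 (*Kdr*), while VEGFR1 (*Flt1*) binds VEGF-A, VEGF-B and placental growth factor (*Pgf*) and can act as a decoy for VEGF-A. VEGF-C and VEGF-D bind VEGFR3 (*Flt4*) and are best known for lymphatic growth, and podocytes are a well-known source of VEGF-A in the glomerulus. Angiopoietin 1 (*Angpt1*) activates the endothelial receptor TIE2 (*Tek*) and stabilizes vessels, and angiopoietin 2 (*Angpt2*), made largely by endothelial cells, is a context-dependent antagonist at the same receptor.

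The sequences just upstream of 3 of the ligand genes are shown because *Vegfa* and *Vegfb* were the most abundant ligands here and *Vegfc* is a ligand of the receptor *Flt4*, and because all 3 starts lie in GC-rich DNA. Each is the 250 bases before a RefSeq transcript start (GRCm38.p6), written 5′ to 3′ on the strand of the gene. Capitals mark GC boxes, the letters GGGCGG on either strand, with overlapping or adjoining matches run together.
*Vegfa* (chr17:46032378-46032627, minus strand, 59.2% GC): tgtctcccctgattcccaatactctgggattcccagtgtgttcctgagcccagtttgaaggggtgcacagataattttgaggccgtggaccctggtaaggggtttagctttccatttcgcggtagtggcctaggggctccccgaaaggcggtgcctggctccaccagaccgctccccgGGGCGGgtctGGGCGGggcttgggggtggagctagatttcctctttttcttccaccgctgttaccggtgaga
*Vegfb* (chr19:6987652-6987901, minus strand, 76.4% GC): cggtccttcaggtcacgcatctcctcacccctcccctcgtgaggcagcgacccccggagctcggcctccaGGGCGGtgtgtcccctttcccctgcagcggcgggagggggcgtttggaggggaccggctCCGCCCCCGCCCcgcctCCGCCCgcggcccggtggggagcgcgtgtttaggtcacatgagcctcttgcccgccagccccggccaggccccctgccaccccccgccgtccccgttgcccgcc
*Vegfc* (chr8:54077282-54077531, plus strand, 71.6% GC): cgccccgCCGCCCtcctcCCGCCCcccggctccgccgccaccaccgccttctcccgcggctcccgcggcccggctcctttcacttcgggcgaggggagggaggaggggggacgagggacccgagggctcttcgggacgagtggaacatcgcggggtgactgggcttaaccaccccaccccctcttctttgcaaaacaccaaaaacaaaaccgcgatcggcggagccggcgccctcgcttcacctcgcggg

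The *Vegfa* window held 2 GC boxes, the *Vegfb* window 4 and the *Vegfc* window 2. The outer start windows of *Pgf* and *Flt4* held 2 and 3, and windows were not found for *Angpt1* and *Angpt2*. Among all 32851 start windows of this length, 32.7% held a GC box. The printed windows were shown in part for their GC-rich letters, so this share does not test them. The letters ACGTG on either strand, the core of the element bound by hypoxia-inducible factors, were in none of the outer windows of these 5 genes, in 1 window at a start inside *Vegfa*, and in 16.6% of all windows. The letters TATAAA, also on either strand, were in no window of the 5 genes and in 12.4% of all. The window of *Figf*, the gene of VEGF-D, was at 42.4% GC and held 0 GC boxes, 0 ACGTG and 1 TATAAA. Such matches describe the letters of these windows and were not tested for function. Sequence farther from the starts was not searched, so an absence here covers these windows only.

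The loci lie on chromosomes 17 (*Vegfa*, 46016993 to 46032377), 19 (*Vegfb*, 6982472 to 6987651), 8 (*Vegfc*, 54077532 to 54186454), 12 (*Pgf*, 85166639 to 85177313), 15 (*Angpt1*, 42424667 to 42676977) and 11 (*Flt4*, 49609679 to 49652739) of mm10. Each value sums over the exons of a gene, so isoforms, including the splice forms of VEGF-A and soluble *Flt1*, cannot be told apart. The *Angpt2* locus, also on chromosome 8 (18595173 to 18803188), was drawn in the table with the same extent as *Mcph1*, an overlapping gene on the opposite strand whose FPKM was 5.03 to 6.44 in the 9 libraries. In GENCODE, *Angpt2* spans 18690263 to 18741562 only. How reads were shared between these genes is not stated, so *Angpt2* values are less certain than those of the other members.

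Several properties of the libraries bear on these values. *Ntn1* itself was at 26.1, 28.9 and 17.8 FPKM in WT, at 12.3, 12.0 and 16.5 FPKM in HET, and at 10.8, 16.5 and 11.04 FPKM in MUT. All 6 knock-in kidneys were thus below WT, but MUT and HET overlapped (log2 fold change −0.10, limma adjusted *p* = 0.898). Which exons are removed is not stated in the sources used here, so the gene-level value does not check whether the second allele was lost. *Foxd1* was at 25.8 to 33.7 FPKM in WT and at 20.2 to 24.8 FPKM in the 6 knock-in kidneys. Endothelial RNA was present in all of these whole-kidney libraries. The 12 pan-endothelial markers summed to 400.0 to 489 FPKM, with *Cldn5* and *Emcn*, a junction protein and a surface sialomucin, the highest. HET-2 stood apart in liver transcripts, with 6 markers summing to 706 FPKM against 26.9 to 51.6 FPKM elsewhere. The 5 adrenal markers never summed above 1.12 FPKM. Numbers of reads are not given, but the steps between low values placed WT-2 and MUT-3 at 0.574 and 0.616 of the depth of WT-1, with the other libraries at 0.901 to 1.27.

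*Vegfa* was the most abundant of the 7 genes, with a mean of 41.3 FPKM over the 9 libraries, above 83.0% of the loci tested. It was at 53.7, 30.5 and 53.5 FPKM in WT, at 38.2, 43.9 and 38.0 FPKM in HET and at 49.3, 33.3 and 31.1 FPKM in MUT. The WT and MUT libraries were widely spread, and all 3 HET libraries fell within the WT range. *Vegfb*, a VEGFR1 ligand linked to lipid handling in other tissues, was at 32.7, 33.4 and 24.5 FPKM in WT, at 35.7, 31.9 and 25.9 FPKM in HET and at 32.3, 29.3 and 30.8 FPKM in MUT. WT-3 and HET-3 were low, and the MUT libraries lay close together at 30.8±1.49 FPKM (mean±s.d., n=3).

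The remaining ligands were several times lower. *Vegfc* was at 8.23, 7.95 and 6.59 FPKM in WT, at 8.39, 8.02 and 7.24 FPKM in HET and at 9.23, 8.92 and 7.57 FPKM in MUT. Library 3 was the lowest of each genotype, and the genotypes overlapped. *Pgf* was at 4.04, 6.54 and 5.71 FPKM in WT, at 7.09, 7.002 and 6.73 FPKM in HET and at 5.56, 4.35 and 6.82 FPKM in MUT. The HET libraries were tightly grouped (6.94±0.184 FPKM, n=3) and all above WT, whereas MUT-3 reached the HET range.

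*Angpt1* was at 9.61, 8.68 and 12.4 FPKM in WT, at 8.36, 7.59 and 11.6 FPKM in HET and at 9.36, 16.3 and 8.64 FPKM in MUT. MUT-2 was the highest library, and without it MUT lay within the combined range of WT and HET. *Angpt2* was at 5.57, 5.88 and 6.53 FPKM in WT, at 5.64, 5.84 and 5.54 FPKM in HET and at 5.40, 7.89 and 5.64 FPKM in MUT. MUT-2 was again the highest, with the other 8 libraries between 5.40 and 6.53 FPKM. *Flt4* was at 8.28, 6.36 and 5.19 FPKM in WT, at 5.51, 6.44 and 5.62 FPKM in HET and at 8.62, 6.95 and 6.07 FPKM in MUT. WT-1 and MUT-1 were its highest libraries, and MUT-3 lay inside the HET range.

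**Figure D1:**
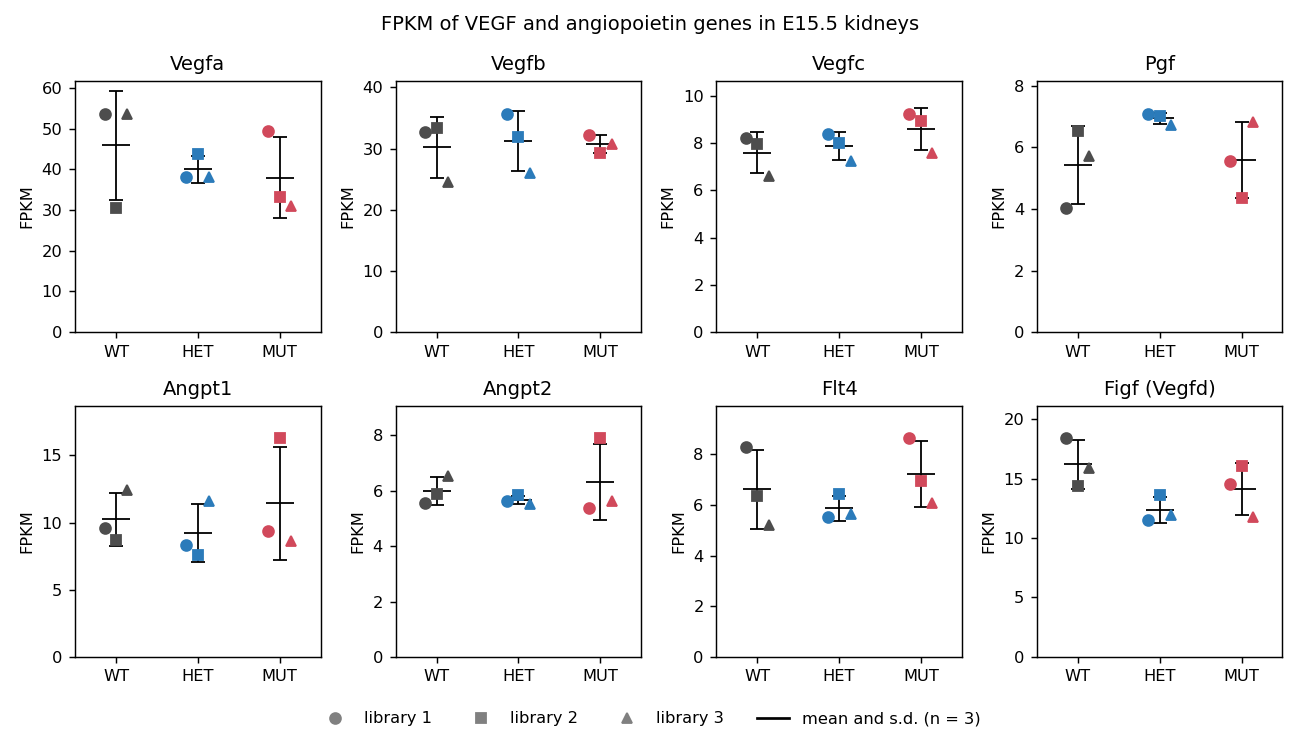
FPKM of the 7 genes and of *Figf* in each library (circle, square and triangle, libraries 1 to 3) by genotype, with the mean and s.d. (n=3) as bars and every axis starting at 0. The genotypes overlap for each of the 7 genes except *Pgf*, whose 3 HET libraries (6.73 to 7.09 FPKM) lie above the 3 WT libraries (4.04 to 6.54 FPKM).

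In order of mean level over the 9 libraries, *Vegfa* (41.3 FPKM) was followed by *Vegfb* (30.7), *Angpt1* (10.3), *Vegfc* (8.02), *Flt4* (6.56), *Angpt2* (5.99) and *Pgf* (5.98). Of the 6 neighbouring pairs in this order, the ranges were apart only between *Vegfb* and *Angpt1*, where the lowest *Vegfb* library (24.5 FPKM) exceeded the highest *Angpt1* library (16.3 FPKM). *Vegfa* exceeded *Vegfb* in 8 of 9 libraries, the exception being WT-2. *Angpt2* and *Pgf* could not be ordered, since *Angpt2* was the higher of the pair in only 3 of 9 libraries. *Angpt1* exceeded *Angpt2* in all 9 libraries. *Angpt1* also varied the most (coefficient of variation 26.6%), followed by *Vegfa* (22.3%) and *Pgf* (19.2%), while *Vegfc* varied the least (10.2%).

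The other ligands of these families completed the picture. *Figf*, which encodes VEGF-D, was at 18.4, 14.4 and 15.9 FPKM in WT, at 11.6, 13.6 and 11.9 FPKM in HET and at 14.6, 16.1 and 11.8 FPKM in MUT. It was therefore above *Vegfc*, the other *Flt4* ligand, in every library. *Angpt4* was at 0.535 to 1.05 FPKM and was below the minimum for testing, a mean of 1 FPKM.

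Between MUT and HET, none of the 7 genes passed the threshold (limma on log2(FPKM + 1), Benjamini-Hochberg adjusted *p* under 0.05). Across all 12915 loci tested, 0 passed (0%), and 699 (5.41%) had an unadjusted *p* under 0.05, of which 0 were members. *Pgf* was 19.6% lower in MUT by its means (log2 fold change −0.29, SE 0.14, limma adjusted *p* = 0.777), and *Flt4* was 23.1% higher (0.25, SE 0.13, adjusted *p* = 0.777). *Angpt1* was 24.2% higher by its means, with a larger error (0.25, SE 0.23, adjusted *p* = 0.802), and leaving out MUT-2 took this difference to −0.01 and leaving out HET-3 to 0.42. The groups of each of these genes overlapped, and the unadjusted limma *p* was 0.077 for *Pgf*, 0.098 for *Flt4* and 0.308 for *Angpt1*. With each library left out in turn, the difference of *Pgf* ranged from −0.15 (without MUT-2) to −0.42 (without MUT-3), and that of *Flt4* from 0.13 (without MUT-1) to 0.35 (without MUT-3), the smallest adjusted *p* being 0.238. That of *Vegfa* ranged from −0.30 (without MUT-1) to 0.02 (without MUT-3). *Vegfa* (−0.10), *Vegfb* (−0.01), *Vegfc* (0.11) and *Angpt2* (0.12) differed by less still. The groups overlapped for each of the 7 genes, while they did not for 1234 (9.55%) of the loci tested. The 95% intervals of the fold change of FPKM + 1 ran from 0.652 at the lowest (*Pgf*) to 1.73 at the highest (*Angpt1*), and that of *Vegfb* was among the narrower ones at 0.816 to 1.22. In such bulk samples, fewer cells of a type and less RNA per cell cannot be told apart.

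**Figure D2:**
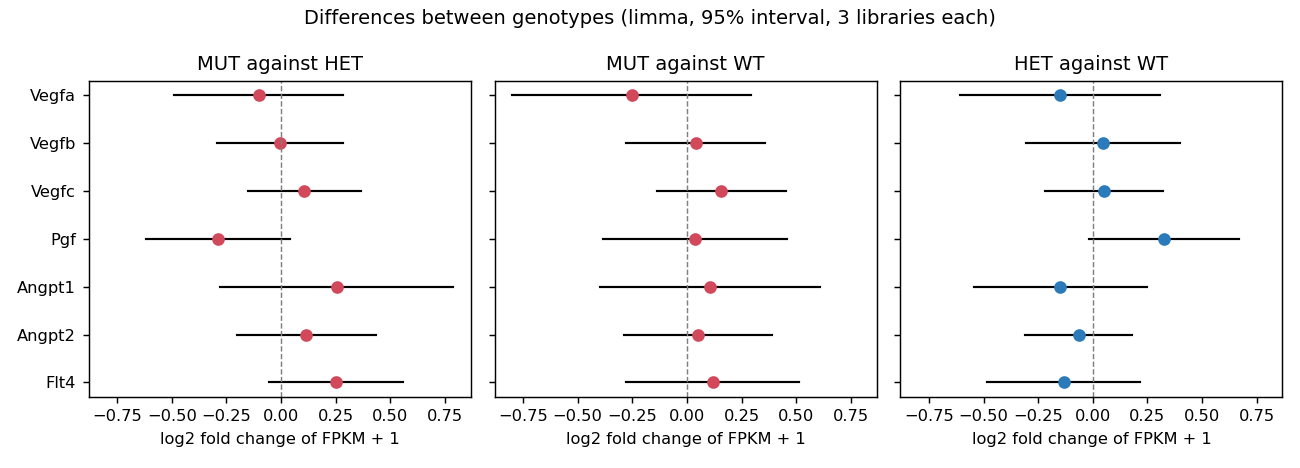
Fitted log2 fold changes of FPKM + 1 (points) with 95% intervals (lines) for the 7 genes in MUT against HET, MUT against WT and HET against WT, 3 libraries a group. The interval includes 0 (dashed line) for all 7 genes in the 3 comparisons, and the HET against WT interval of *Pgf* reaches just below 0 (−0.02 to 0.67).

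Between MUT and WT, again none of the 7 genes passed the adjusted threshold, as for all loci (0 of 12915, 0%), and 0 of the 7 had an unadjusted *p* under 0.05 against 150 loci (1.16%). *Vegfa* showed the largest difference of the 7, with 37.9±9.96 FPKM in MUT and 45.9±13.3 FPKM in WT (n=3 each; log2 fold change −0.25, SE 0.24, adjusted *p* = 1.00), but the 2 groups overlapped, since WT-2 was the lowest library of all. With each library left out in turn, the difference ranged from −0.12 (without WT-1, and the same without WT-3) to −0.52 (without WT-2). The difference of *Vegfa* between HET and WT, −0.15 with all libraries, ranged from −0.02 (without WT-1, and the same without WT-3) to −0.42 (without WT-2). *Vegfc* was 13.0% higher in MUT (0.16, SE 0.13). The other 5 genes differed by 0.04 to 0.12 on the log2 scale. The groups overlapped for all 7 genes and were apart for 470 loci (3.64%).

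Between HET and WT, which differ by the knock-in as well as by 1 floxed allele, none of the 7 genes passed the adjusted threshold (0 of 12915 loci, 0%), and 0 of the 7 had an unadjusted *p* under 0.05 against 188 loci (1.46%). *Pgf* was the one member whose groups were apart: all 3 HET libraries exceeded all 3 WT libraries (6.94±0.184 against 5.43±1.27 FPKM; log2 fold change 0.32, SE 0.15, adjusted *p* = 0.999). The exact two-sided permutation test gave *p* = 0.1, the smallest that 3 libraries against 3 allow. The difference was 0.16 without WT-1, the lowest library, and 0.45 without WT-2. Non-overlapping groups were found for 492 loci (3.81%) in this comparison. *Figf* was 23.7% lower in HET than in WT, with groups apart (−0.36, SE 0.12, adjusted *p* = 0.999). MUT lay between them for *Figf* by its mean (14.1 FPKM), with MUT-1 and MUT-2 inside the WT range and MUT-3 inside the HET range. The 3 comparisons share their libraries, so a low or high value in HET enters both comparisons that use it.

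The receptors are the other side of these signals. *Flt1* was at 7.29, 4.22 and 4.10 FPKM in WT, at 3.57, 4.15 and 3.97 FPKM in HET and at 7.30, 4.84 and 4.27 FPKM in MUT. All MUT libraries were above all HET libraries, the lowest MUT library exceeding the highest HET library by a small margin (log2 fold change 0.38, SE 0.17, limma adjusted *p* = 0.777). Groups were apart in this comparison for 9.55% of all loci tested. In WT, 2 of 3 libraries were as low in *Flt1* as MUT-3 or lower. *Kdr*, the main signalling receptor of VEGF-A, was at 18.8 to 24.6 FPKM in WT, at 17.4 to 20.0 FPKM in HET and at 17.0 to 26.7 FPKM in MUT. The neuropilins are co-receptors that VEGF shares with semaphorins. *Nrp1* had the highest level of the receptor group (40.5 FPKM on average, range 35.8 to 45.8), and *Nrp2* was at 5.44 to 9.26 FPKM in WT, 5.37 to 6.38 FPKM in HET and 5.81 to 9.59 FPKM in MUT. The *Nrp2* groups overlapped between MUT and HET through MUT-3 (log2 fold change 0.39, SE 0.18, adjusted *p* = 0.777). Of these 4 receptors and co-receptors, 0 passed the test in either direction in any comparison.

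The angiopoietin receptor *Tek* was at 16.6 to 21.1 FPKM in WT, 16.1 to 19.8 FPKM in HET and 17.1 to 18.8 FPKM in MUT. Its level was thus similar in range to that of *Kdr*. The orphan receptor *Tie1*, which associates with TIE2, was at 22.3 to 32.3 FPKM, and the phosphatase *Ptprb* (VE-PTP), which restrains TIE2, at 2.42 to 4.07 FPKM across the 9 libraries. None of the 3 passed the test in any comparison, and their log2 fold changes in MUT against HET were 0.04, 0.18 and 0.13, beside a median over all loci tested of −0.01.

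**Figure D3:**
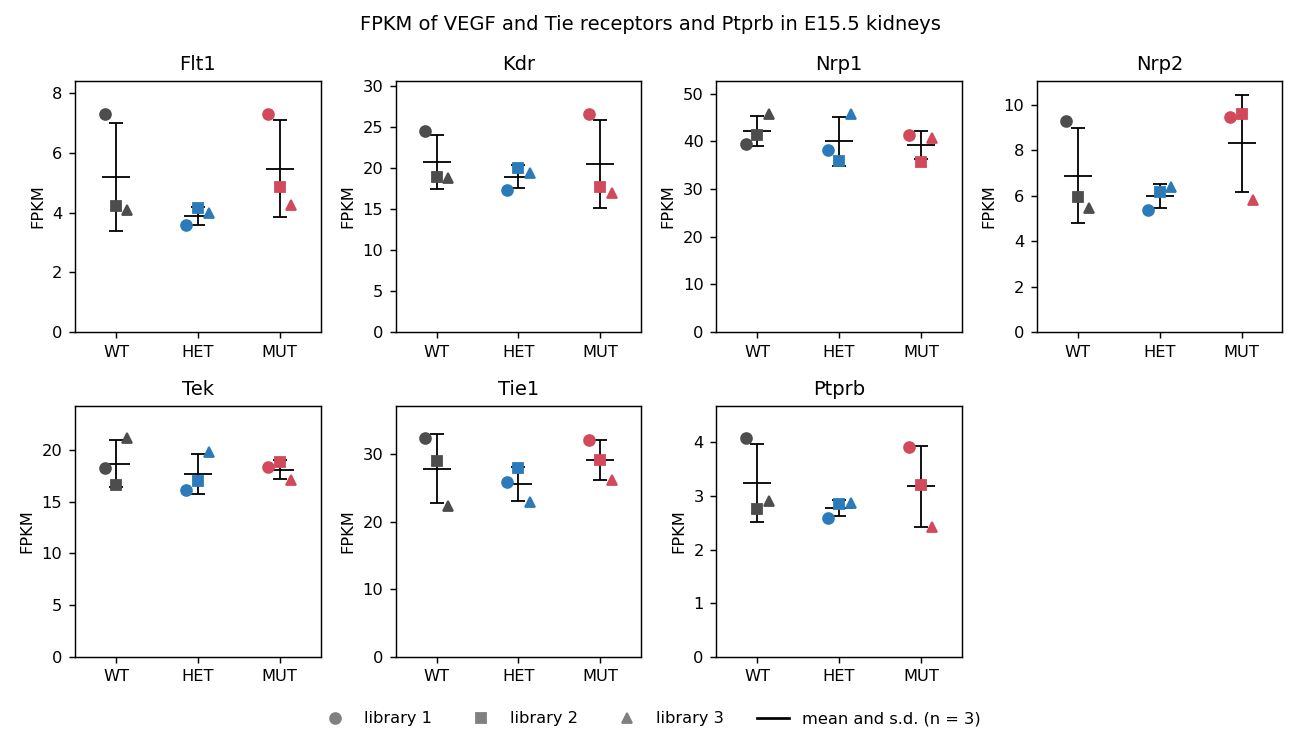
FPKM of the VEGF receptors and co-receptors *Flt1*, *Kdr*, *Nrp1* and *Nrp2*, the angiopoietin receptors *Tek* and *Tie1* and the phosphatase *Ptprb* in each library (symbols), with mean and s.d. (n=3) as bars. WT-1 and MUT-1, the circles of the left and right groups, are the 2 highest libraries for *Flt1* (7.29 and 7.30 FPKM), *Kdr* (24.6 and 26.7 FPKM) and *Ptprb* (4.07 and 3.92 FPKM).

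Ratios of FPKM within a library were formed for 6 pairs over the 3 comparisons, 18 tests in all. *Vegfa* over *Flt1* was 6.76, 6.88 and 7.28 in MUT and 10.7, 10.6 and 9.57 in HET. All MUT ratios were below all HET ratios (log2 difference −0.56; exact two-sided permutation *p* = 0.1, the smallest possible; 0.84 adjusted over the 18). In WT the ratio was 7.36, 7.22 and 13.1, so 2 WT libraries lay beside MUT and WT-3 above HET. The MUT against WT ratios overlapped (log2 difference −0.35, exact *p* = 0.2). *Vegfc* over *Flt4* was 0.994 to 1.27 in WT, 1.25 to 1.52 in HET and 1.07 to 1.28 in MUT, and *Angpt2* over *Angpt1* was 0.525 to 0.677, 0.476 to 0.769 and 0.485 to 0.653. In both cases the genotypes overlapped (exact *p* = 0.3 and 0.6 for MUT against HET). Set against the summed pan-endothelial markers, *Flt4* amounted to 1.36% to 1.87% in MUT, 1.18% to 1.41% in HET and 1.22% to 1.77% in WT, and *Angpt2* to 1.17% to 1.79% in the 9 libraries, with overlapping groups for both.

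**Figure D4:**
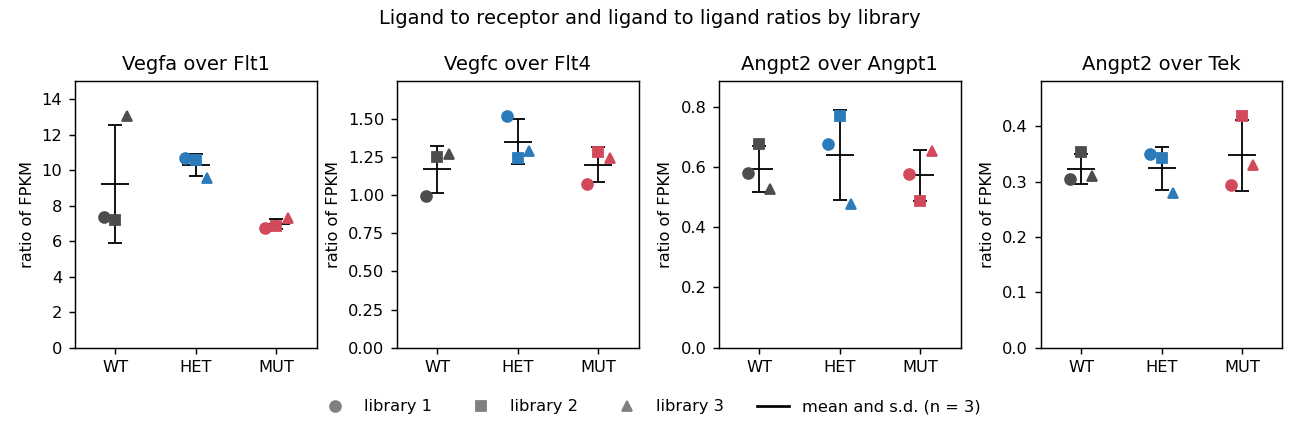
Ratios of FPKM within each library (symbols) for *Vegfa* over *Flt1*, *Vegfc* over *Flt4*, *Angpt2* over *Angpt1* and *Angpt2* over *Tek*, with mean and s.d. (n=3) as bars. *Vegfa* over *Flt1* is 6.76 to 7.28 in MUT and 9.57 to 10.7 in HET, while WT spans 7.22 to 13.1 and the other 3 ratios overlap between genotypes.

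Genes that act upstream of the ligands did not pass the test. The oxygen-sensing list holds the hypoxia-inducible factors, which induce *Vegfa*, and regulators of these factors. Of its 8 genes, all tested, 0 passed in either direction, and 7 had a higher fitted level in MUT than in HET (median log2 fold change 0.15, against −0.01 over all loci). *Hif1a* was at 42.4 to 52.2 FPKM in MUT and 37.8 to 49.0 FPKM in HET, and the prolyl hydroxylase gene *Egln2* at 36.4 to 42.0 and 34.4 to 41.0 FPKM. The related *Egln1* was the gene of this list with groups apart, at 34.2 to 35.5 FPKM in MUT, 29.5 to 33.3 FPKM in HET and 29.5 to 34.0 FPKM in WT (adjusted *p* = 0.777 against HET and 1.00 against WT). Among all loci tested, groups were apart for 9.55% in MUT against HET and for 3.64% in MUT against WT. Summed, the 8 genes came to 198 to 214 FPKM in MUT, 193 to 196 FPKM in HET and 191 to 212 FPKM in WT. The exact two-sided permutation test of these sums in MUT against HET gave *p* = 0.1. That is the smallest possible value, and it was not adjusted for the number of lists. The same permutation test in MUT against HET also gave *p* = 0.1 for the signalling and erythroid lists below. For the sums of the other lists it gave *p* from 0.2 (such as *Tek*, *Tie1* and *Ptprb*) to 0.9 (such as the pan-endothelial markers). For the processing of VEGF-C, *Ccbe1* and *Adamts14* were tested and *Adamts3* was below the minimum. *Ccbe1*, which promotes VEGF-C maturation, was at 3.04 to 5.24 FPKM in MUT and 2.51 to 3.47 FPKM in HET (log2 fold change 0.37, SE 0.17, adjusted *p* = 0.777), and neither gene passed the test.

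Genes downstream of the receptors were likewise below the threshold. Of 24 intracellular signalling genes listed, 23 were tested and 0 passed in MUT against HET, with 1 at an unadjusted *p* under 0.05 (*Shb*, an adaptor of VEGFR2), against 5.41% of all loci, while 16 of the 23 had a higher fitted level in MUT (median 0.07). *Cdc42* and *Rac1*, small GTPases of cell movement, were the most abundant at 325 and 218 FPKM on average in MUT and 335 and 203 FPKM in HET. Summed, the 24 genes came to 1156 to 1180 FPKM in MUT, 1124 to 1150 FPKM in HET and 1117 to 1172 FPKM in WT. The exact permutation test of this sum in MUT against HET also gave *p* = 0.1, the smallest possible and unadjusted. Of 8 tip cell genes, fitted levels in MUT were above HET for 3 and below it for 5 (median −0.02), and 0 passed. *Igfbp3*, an IGF-binding protein, and *Cxcr4*, a chemokine receptor, led this list at 47.0 to 53.9 FPKM and 22.0 to 27.5 FPKM in MUT against 47.0 to 56.6 FPKM and 26.3 to 29.3 FPKM in HET.

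Markers of the cells that make or receive these ligands are given beside these values, and their part in them was not tested. The 12 pan-endothelial markers summed to 441 to 461 FPKM in MUT, 400.0 to 489 FPKM in HET and 426 to 467 FPKM in WT, and 0 of 12 passed. Of 4 lymphatic markers, *Prox1*, the defining one, was at 0.278 to 0.842 FPKM and was not tested, and 0 of the other 3 passed (*Pdpn*, which podocytes also express, was at 17.0 to 24.2 FPKM and *Reln* at 2.95 to 6.61 FPKM). Thus *Flt4* and *Vegfc* were measured in kidneys with little *Prox1*. The 8 podocyte markers were all higher in MUT than in HET by fitted level (median 0.23) and all lower in HET than in WT (median −0.27), 0 passing, with summed levels that overlapped (138 to 213 FPKM in MUT, 131 to 175 FPKM in HET and 155 to 236 FPKM in WT). *Wt1*, a podocyte and nephron progenitor transcription factor, was at 50.05 to 76.0 FPKM and *Podxl*, a podocyte surface protein, at 37.1 to 71.0 FPKM. WT-1, MUT-2 and MUT-1 had the highest podocyte sums, and of these WT-1 and MUT-1 were also high in *Vegfa*, while MUT-2 (33.3 FPKM) was not. WT-3, as high in *Vegfa* (53.5 FPKM) as WT-1, had a podocyte sum of 162 FPKM.

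Of 8 mural and smooth muscle markers, 0 passed the adjusted threshold. In MUT against HET, 4 were lower at an unadjusted *p* under 0.05 (*Acta2*, *Myh11*, *Actg2* and *Cnn1*, genes of the smooth muscle contractile apparatus), and in HET against WT *Myh11*, *Actg2* and *Cnn1* were higher at that level, against 5.41% and 1.46% of all loci tested. In MUT against WT, log2 fold changes were −0.03 for *Acta2*, 0.04 for *Myh11*, 0.14 for *Actg2* and 0.09 for *Cnn1*, with overlapping groups. *Acta2* was at 52.4 to 67.6 FPKM in MUT, 66.6 to 94.98 FPKM in HET and 54.7 to 72.1 FPKM in WT. *Rgs5*, a pericyte marker, was at 40.9 to 56.3, 30.1 to 47.5 and 38.0 to 55.6 FPKM. HET-2 held the highest *Acta2* as well as the liver transcripts, and the member values of HET-2 lay within the range of the other 8 libraries except for *Angpt1*, lowest there at 7.59 FPKM. Without HET-2, the HET against WT difference of *Pgf* was 0.32, as with it, and the MUT against HET difference of *Angpt1* was 0.14 in place of 0.25.

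The other resident cell types were measured in the same way. *Tcf21*, a stromal and podocyte transcription factor, was at 137 to 185 FPKM. Nephron progenitor markers, led by *Cited1* and *Six2*, summed to 166 to 265 FPKM and ureteric bud markers, led by *Hoxb7* and *Wnt11*, to 106 to 126 FPKM over the 9 libraries. Macrophage markers, led by *C1qa* and *Csf1r*, summed to 21.0 to 29.8 FPKM. Erythroid markers, led by the globin genes *Hba-a1* and *Hbb-y*, summed to 264 to 294 FPKM in MUT and 310 to 473 FPKM in HET, with WT at 259 to 377 FPKM. The exact permutation test of this sum in MUT against HET gave *p* = 0.1, the smallest possible and unadjusted. The 4 erythroid markers tested were lower in MUT than in HET by fitted level (median −0.26). No gene of these lists passed the adjusted threshold in any comparison.

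Differences between single libraries also went with transcript length and GC content, and their part in the member values was not tested beyond the correction given here. In WT-1 and MUT-1, loci with long transcripts (4828 bases or more) were higher than those with short transcripts (2185 bases or fewer) by 0.31 and 0.33 on the log2 scale relative to the 9-library mean, whereas the same measure was −0.23 to 0.09 in the other 7 libraries. *Flt4* (6255 bases), *Flt1* (6895), *Kdr* (5924) and *Ptprb* (11911) were each highest in these libraries, whereas *Nrp2* (6723), also long, was highest in MUT-2 (9.59 FPKM) and next in MUT-1 and WT-1. In WT-3 and HET-3, the difference between loci rich and poor in GC was −0.33 and −0.19 on the same scale, and *Vegfb*, whose transcript is 62.6% GC, was lowest there (24.5 and 25.9 FPKM). *Angpt1*, at 39.3% GC the member poorest in GC, was higher in the same 2 libraries than in any other library but MUT-2. Not all members went this way. *Vegfc*, at 44.9% GC, was also lowest in WT-3 and HET-3 (6.59 and 7.24 FPKM). *Pgf*, at 56.3% GC, was not lowest there (5.71 and 6.73 FPKM). With values corrected for GC content and length together, a choice made after seeing the data, the MUT against HET difference of *Flt4* was 0.14 in place of 0.25 and that of *Pgf* −0.23 in place of −0.29. The ratio of *Vegfa* over *Flt1* from such corrected values was 4.79 to 5.59 in MUT, 6.59 to 6.89 in HET and 4.73 to 8.87 in WT. MUT and HET were still apart (log2 difference −0.40, exact permutation *p* = 0.1), and WT spanned both. The correction also shifts the level of such a ratio, so only differences between libraries can be read from it.

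**Figure D5:**
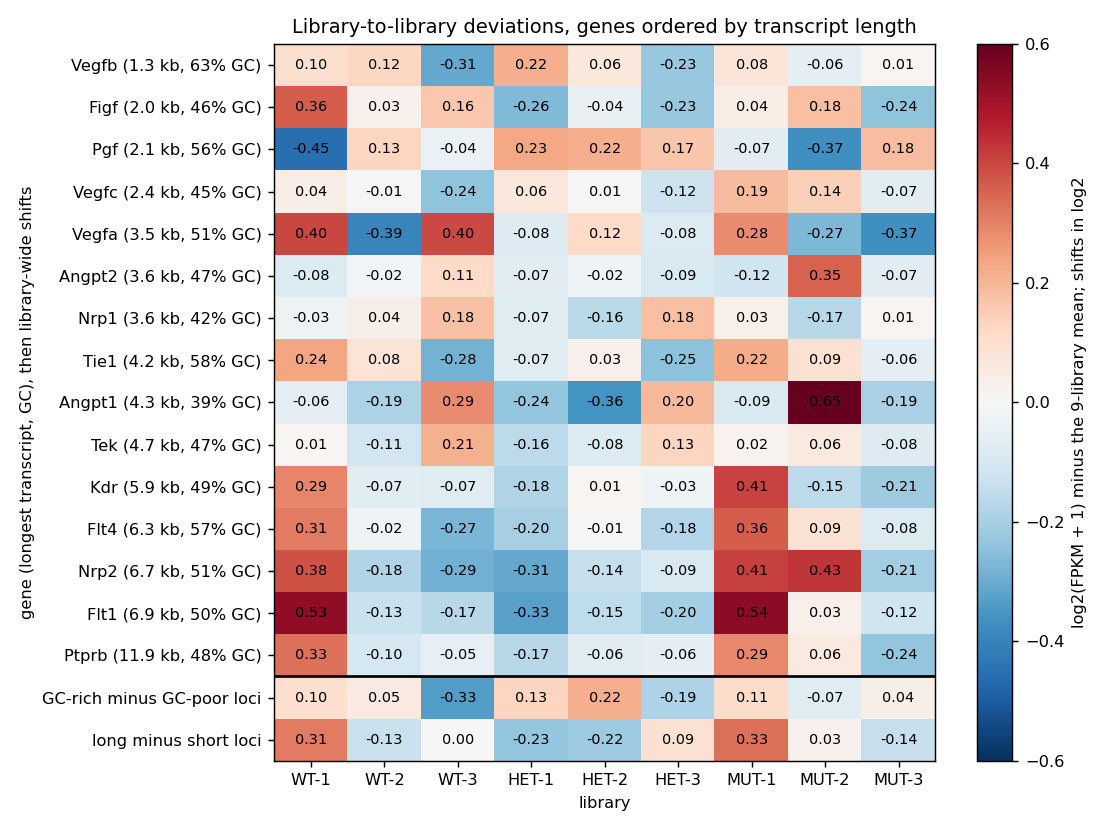
Deviation of log2(FPKM + 1) from the 9-library mean (number and colour) for the 7 genes, *Figf* and the receptors, in rows ordered by the length of the longest transcript, for each library in columns, with 2 rows below for the shift between GC-rich and GC-poor loci and between long and short loci. The long genes at the bottom are red in WT-1 and MUT-1 (*Flt1* 0.53 and 0.54), the 2 libraries with the largest long minus short shift (0.31 and 0.33).

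Likeness among the genes is given as a description over the 9 libraries, which all genes share. The highest correlation between members was that of *Angpt1* with *Angpt2* (Pearson's r = 0.791), both highest in MUT-2, followed by *Vegfc* with *Flt4* (0.745) and *Vegfb* with *Vegfc* (0.698). The lowest were *Vegfb* with *Angpt1* (−0.650) and *Pgf* with *Flt4* (−0.626). For *Vegfa*, the correlations with the other members ranged from −0.378 with *Pgf* to 0.296 with *Flt4*. Among 9978 loci with a mean of at least 5 FPKM, the pattern of *Vegfa* was most like those of *Gabbr1* (0.969), *Zmynd11* (0.953) and *Zgpat* (0.951), and that of *Vegfb* most like those of *Gnb2* (0.972, at a locus joined with *Mir6418*), *Repin1* (0.965) and *Brat1* (0.962). *Vegfc* was most like *Lrrc8d* (0.957), *Gpt2* (0.945) and *Ube2d1* (0.943). *Pgf* was most like *Uba1* (0.961), *Mpzl1* and *Mrto4* (both 0.952). *Angpt1* was most like *Tmem123* (0.984), *Sh3bgrl* (0.972) and *Zfp324* (0.971), and *Angpt2* most like *Atg3* (0.958), *C1galt1c1* (0.958) and *Dynlt3* (0.956), all 6 of which were also highest in MUT-2. *Flt4* was most like *Pip5k1c*, *Sh3rf1* and *Piezo1* (0.988 to 0.993). None of the closest loci belongs to the VEGF or angiopoietin lists used here.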

How the data were processed

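Whole E15.5 mouse kidneys were profiled by stranded mRNA sequencing, with 3 kidneys of each of 3 genotypes. Per the labels and methods, the authors used STAR for alignment, cufflinks and cuffmerge for transcript assembly, and CuffDiff for FPKM. The submitters' processing notes name mm10, and versions and annotation are not given in the sources used here. The deposited FPKM were used as they are, with no counts available and the depth therefore unknown except as a relative estimate. Groups came from sample labels. The authors' column means equal those of the libraries and were not used.

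Loci with a mean of at least 1 FPKM over the 9 libraries (12915 of 24138) entered limma 3.58.1 as log2(FPKM + 1) (lmFit, eBayes with a trend) in R 4.3.3, fitting only the 6 libraries of each comparison. All *p* were two-sided, Benjamini-Hochberg adjusted over all loci tested, and judged at 0.05. On this scale, changes of low genes come out smaller than they are. Single sums and ratios used exact permutation tests, computed with scipy 1.17.1, for which 3 against 3 cannot give *p* under 0.1. Nothing states which kidneys came from which cross, so *p*-values measure the spread between these kidneys. Table starts are counted from 0 and are given here counted from 1. Transcript GC content and length came from GENCODE release M21 for 99.3% of tested loci, and start windows from RefSeq (GRCm38.p6). The GC and length corrections used splines with 5 degrees of freedom per library. The steps were tested on simulated data.

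The members and lists were chosen with earlier results of these data known. Genes named are the 7 members, *Ntn1*, *Foxd1*, all VEGF and Tie receptors, *Ptprb*, *Figf*, *Angpt4*, the 2 most abundant genes of every other list with any past the adjusted threshold (there were 0), and the 3 loci most like each member. *Prox1*, *Egln1*, *Ccbe1*, *Shb*, *Myh11*, *Actg2*, *Cnn1* and *Mcph1* were named after their values were seen, as were *Adamts3* and *Adamts14*. Alternatives were other pseudocounts and minimums, other scalings, all 9 libraries in 1 fit, no trend, a replicate block, GC correction and each library left out. The summed stromal progenitor list and 1 gene that the naming rule selects are not reported here. Amino acid sequences were not used here.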

Additional observations from a re-analysis of the deposited data

How the results depend on the processing

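No member passed the adjusted threshold under any alternative, the smallest adjusted *p* being 0.238 (*Pgf*, MUT against HET without MUT-3). Of 252 member values under 12 alternatives a comparison, 243 kept their direction, and of 126 values with a library left out, 17 reversed. In MUT against HET, *Vegfb* reversed with median-of-ratios rescaling (log2 fold change 0.0053) and quantile normalization (0.012). In MUT against WT, *Pgf* and *Vegfb* reversed with GC correction (−0.0096 and −0.046, the same with the replicate block added) and with GC and length correction (−0.0071 and −0.082). In HET against WT, *Vegfb* reversed with GC and length correction (−0.063). The cause was not tested. From values corrected for GC and length, the log2 ratio of *Vegfc* over *Flt4* in MUT against HET was 0.034, and those of *Angpt2* over *Tek* and over pan-endothelial markers in HET against WT were −0.026 and 0.0032.

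Loci at an unadjusted *p* under 0.05 numbered 1052 with GC and length correction in MUT against HET. In MUT against WT there were 65 with the 5 FPKM minimum, 540 with no minimum and 269 with GC and length correction, and in HET against WT 108, 511 and 360. Same-numbered libraries of MUT and HET did not deviate together (correlations −0.27 to 0.06), nor did those of MUT and WT throughout (−0.25 to 0.56) or of HET and WT (−0.19 to 0.19), so the data did not show a pairing by number. The labels do not tie the numbers to the crosses, and the tests in the study's own tables pair same-numbered MUT and HET libraries, so whether the numbers pair the kidneys is not settled. The replicate block gave 455 such loci in MUT against HET, 340 in MUT against WT (398 with GC correction) and 296 in HET against WT, with 0 members called.

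With each library left out in turn, such loci numbered 271 (without HET-2) to 2157 (without MUT-3) in MUT against HET, 92 (without WT-3) to 423 (without WT-1) in MUT against WT, and 156 (without HET-2) to 824 (without HET-3) in HET against WT. Leaving out HET-1 (274), HET-3 (1292), MUT-1 (425) and MUT-2 (383) also moved the first count by over 1.5 times, as did MUT-2 (242), MUT-3 (264) and WT-2 (252) the second and WT-2 (455) and WT-3 (309) the last. Loci past the adjusted threshold numbered 0 to 2, 0 to 2 and 0 to 3. Of the 7 members, 0 to 2, 0 to 1 and 0 to 2 had an unadjusted *p* under 0.05 in limma. In the same fits, 271 to 2157, 92 to 423 and 156 to 824 of the 12915 loci tested reached that level. In MUT against HET the log2 fold changes ranged from −0.0091 to 0.42 for *Angpt1*, −0.034 to 0.20 for *Angpt2*, −0.30 to 0.022 for *Vegfa* and −0.13 to 0.094 for *Vegfb*. In MUT against WT they ranged from −0.16 to 0.26 for *Angpt1*, −0.099 to 0.14 for *Angpt2*, −0.020 to 0.27 for *Flt4*, −0.13 to 0.18 for *Pgf* and −0.098 to 0.12 for *Vegfb*, and in HET against WT from −0.27 to 0.021 for *Flt4*, −0.092 to 0.17 for *Vegfb* and −0.035 to 0.11 for *Vegfc*. Log2 ratios with a changed sign ranged, for *Angpt2* over *Angpt1*, from −0.34 to 0.0024 in MUT against HET, −0.16 to 0.056 in MUT against WT and −0.059 to 0.29 in HET against WT. For *Angpt2* over *Tek* they ranged from −0.048 to 0.21, −0.045 to 0.21 and −0.056 to 0.11, and for *Angpt2* over pan-endothelial markers from −0.050 to 0.26, −0.12 to 0.19 and −0.14 to 0.038. *Vegfc* over *Flt4* ranged from −0.074 to 0.12 in MUT against WT, and *Flt4* over pan-endothelial markers from −0.26 to 0.0093 in HET against WT.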
